A study of Mus musculus with 10 samples.

Results

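Gasdermins are a family of genes that encode pore-forming proteins, and 5 of them are described here in mouse kidney ureteric bud (UB) and collecting duct (CD) organoids: *Gsdmc*, *Gsdmc2*, *Gsdmc3*, *Gsdmc4* and *Gsdmd*. They were chosen by their read counts in CD organoids, which were high beside those of UB organoids, so the comparison of CD organoids with the other groups is given for them as a description, with no test. All 5 were found by gene name among the 39273 genes of the deposited count table. The 4 *Gsdmc* genes are neighbouring copies, of which *Gsdmc2*, *Gsdmc3* and *Gsdmc4* are closest in sequence, and because reads could not always be placed on 1 of them, their counts were also summed.

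The series holds 10 libraries in 5 groups of 2. UB organoids, grown from the dissected ureteric bud in a culture medium that maintains its progenitors, were sampled after 5, 10 and 20 days. That medium holds FGF9, GDNF, an R-spondin, the retinoic acid substitute TTNPB, CHIR99021, a JAK inhibitor and further small molecules. CD organoids were made from UB organoids of day 10 by a change to a differentiation medium that holds FGF9, a ROCK inhibitor, a Notch pathway inhibitor, a MEK inhibitor, aldosterone and vasopressin. They were cultured further in that medium, so they also differ from UB organoids of day 10 in time in culture, and the part of this was not tested. No JAK inhibitor is listed for the differentiation medium. The part of the single components in the values below was not tested. Adult mouse collecting duct cells (adult mCD) were sorted by the Venus reporter of *Hoxb7*-Venus mice of 2 months. The labels of the organoid libraries give embryonic day 11, *Wnt11*-RFP +/- and the strain C57BL/6 x Swiss Webster. The adult libraries carry the same labels and the word organoid, which goes against the series' own design text, and that text was followed. *Hoxb7*-Venus marks the ureteric lineage as a whole, and the number of animals or cultures behind each library was not given. The p-values thus measure only the spread between libraries of the same group, estimated over all 5 groups together, and this spread may be technical.

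Gasdermins are made as inactive proteins in which the carboxy-terminal part holds back the amino-terminal part. Proteases, mostly caspases, cut the link between them, and the freed amino-terminal part makes pores in the plasma membrane, which can release cytokines such as interleukin 18 and can end in pyroptosis, a lytic form of cell death. *Gsdmd* encodes the gasdermin cut by the inflammatory caspases below the inflammasomes. The *Gsdmc* genes are best known from skin and from intestinal epithelium in type 2 immunity, and caspase 8 is known to cut gasdermin C. Whether it cuts the product of each mouse copy was not tested here. RNA levels say nothing of whether a protein was cut.

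The *Gsdmc* copies lie within 136.3 kb of chromosome 15, all on the minus strand (GRCm38, GENCODE M21). *Gsdmc* is at chr15:63775968-63808759, *Gsdmc2* at chr15:63824346-63845177, *Gsdmc3* at chr15:63857724-63878558 and *Gsdmc4* at chr15:63891264-63912297. *Gsdmd* is on the plus strand of the same chromosome at chr15:75862327-75867408, 11950 kb further on. The coding sequences of *Gsdmc2* and *Gsdmc3* were identical at 97.1% of aligned bases, and each of them was identical to *Gsdmc4* at 93.8%. *Gsdmc* matched the other copies at between 87.0% and 87.5%, and *Gsdmd* matched the 4 copies at between 57.0% and 59.6%. The first 90 coding bases of the copies, each within 1 exon, are shown because they make plain how little separates the genes whose levels are compared, with capitals for the bases that differ from *Gsdmc2*. They are read on the minus strand, 5′ to 3′, from chr15:63835854-63835943 for *Gsdmc2*, chr15:63869208-63869297 for *Gsdmc3*, chr15:63902841-63902930 for *Gsdmc4* and chr15:63804503-63804592 for *Gsdmc*.
Gsdmc2: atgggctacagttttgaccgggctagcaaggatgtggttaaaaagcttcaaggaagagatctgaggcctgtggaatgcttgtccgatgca
Gsdmc3: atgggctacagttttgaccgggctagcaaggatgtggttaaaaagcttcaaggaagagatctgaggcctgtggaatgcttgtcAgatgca
Gsdmc4: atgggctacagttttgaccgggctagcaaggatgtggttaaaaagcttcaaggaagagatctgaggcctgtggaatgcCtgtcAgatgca
Gsdmc: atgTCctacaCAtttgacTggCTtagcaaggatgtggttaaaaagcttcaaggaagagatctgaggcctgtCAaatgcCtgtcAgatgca
In this stretch *Gsdmc3* differed from *Gsdmc2* at 1 base, *Gsdmc4* at 2 and *Gsdmc* at 11. Over the whole transcript, 50.1% of the 50-base windows of *Gsdmc2* occurred unchanged in another copy, against 41.9% for *Gsdmc3*, 39.0% for *Gsdmc4* and 16.4% for *Gsdmc*. With windows of 100 bases these shares were 25.2%, 23.1%, 20.2% and 7.33%. No window of *Gsdmd* of either length occurred in a *Gsdmc* copy. The split of reads among *Gsdmc2*, *Gsdmc3* and *Gsdmc4* is therefore uncertain, while the sum of the copies does not depend on it.

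The library totals were between 11913613 and 24536676 counts, with the CD organoid libraries the shallowest. Those of UB day 5 and day 10 were at least 22858971 counts and all others at most 16759872. The sample numbers of these 2 sets also form separate runs. Comparisons of CD organoids, adult mCD or day 20 with day 5 or day 10 thus cross the sets, and the part of this was not tested. Levels are given as CPM, counts scaled to a common library size, in which the total is corrected by the TMM factor and nothing is divided by gene length. A count of 3, used as the limit of detection, was worth between 0.109 and 0.241 CPM, a limit that covers counting error only. The 6 UB lineage markers (among them *Gata3*, *Krt8* and *Cdh1*) were above this limit in every library. The adult libraries also held all 8 proximal tubule markers, which summed to 3900 and 4715 CPM there and to between 5.77 and 34.0 CPM in the organoids, and their part in the adult values below was not tested.

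*Gsdmc2* was the member with the highest level. It had 0 counts in both libraries of UB day 5, in both of day 10 and in 1 of day 20, and 13 counts in the other library of day 20. CD organoids had 4222 and 4583 counts, or 300.6 and 367.5 CPM, and adult mCD had 135 and 93 counts, or 10.2 and 7.31 CPM. The CD organoid libraries thus stood above all others, the adult libraries stood between them and the UB organoids, and no library of these 3 sets overlapped another set. *Gsdmc2* was at least 2926-fold higher in CD organoids than at UB day 10, against a floor of 3 counts per library. The CD organoid level was 37.9-fold that of adult mCD (95% counting interval 33.2 to 43.4).

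*Gsdmc3* followed the same order at a lower level. It was at 0 in 5 of the 6 UB organoid libraries and had 5 counts in the same library of day 20. It reached 161.2 and 205.8 CPM in CD organoids (2264 and 2567 counts) and 3.69 and 4.32 CPM in adult mCD (49 and 55 counts). The CD organoid level was 45.5-fold that of adult mCD (37.5 to 55.8) and at least 1608-fold that of UB day 10.

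*Gsdmc4* was low by comparison, and its adult libraries overlapped the UB organoids. It had 80 and 86 counts in CD organoids against 1 and 4 in adult mCD. UB organoids had 0 and 1 counts on day 5, 4 in each library of day 10, and 2 and 3 on day 20. In CPM the CD organoids had 5.70 and 6.90 and every other library had between 0 and 0.314. The CD organoid level was 41.2-fold that of day 10 (20.4 to 97.0) and 32.5-fold that of adult mCD (13.7 to 101.5).

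*Gsdmc*, the copy that gives the group its name, was hardly detected. It had 5 counts and 1 count in CD organoids, 1 count in a library of UB day 5 and 0 in the other 7 libraries, all of which together left it below the total of 10 counts required for a test. Only 1 library, CD organoid replicate 1, was above 3 counts. The reads in CD organoids therefore did not spread evenly over the 4 copies, although these share sequence.

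Summed over the copies, CD organoids had 467.8 and 580.3 CPM, a mean of 524.1 ± 79.6 (SD, n = 2). Adult mCD had 13.94 and 11.95 CPM (mean 12.9 ± 1.41), and the UB organoids had between 0 and 0.159 CPM in 5 libraries and 1.39 CPM in the remaining one. The sum was 40.2-fold higher in CD organoids than in adult mCD (36.1 to 44.9) and 3427-fold higher than at UB day 10 (1739 to 7940).

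*Gsdmd*, the gasdermin downstream of the inflammasomes, had another pattern. CD organoids had 56 and 45 counts and adult mCD had 57 and 50. In UB organoids it had 16 and 24 counts on day 5, then 3 and 2 on day 10, then 0 and 5 on day 20. In CPM, CD organoids (3.99 and 3.61) and adult mCD (4.30 and 3.93) overlapped, with a ratio of CD organoids to adult of 0.925 (0.698 to 1.23). Both stood above UB day 5 (0.683 and 0.979), which stood above day 10 (0.119 and 0.0729) and day 20 (0 and 0.331). The libraries of day 10 and day 20 overlapped. Bulk RNA cannot tell a change in the share of cells that make a transcript from a change in its amount per cell, here or for any gene below.

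**Figure D1:**
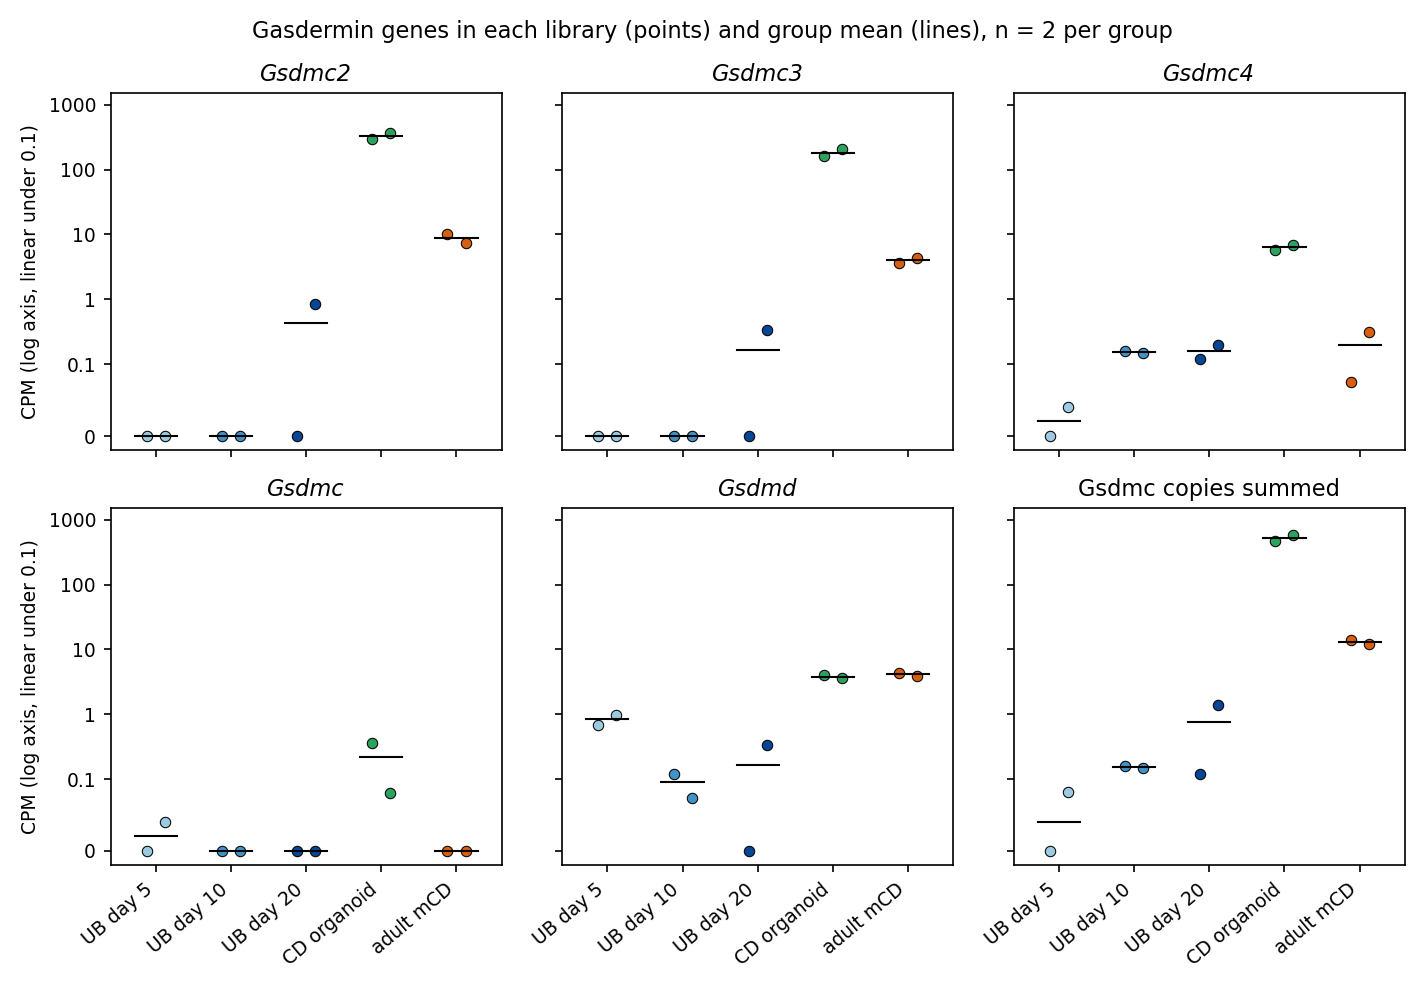
CPM of the 5 gasdermin genes and of the summed *Gsdmc* copies in each of the 10 libraries (points) with the mean of each group (lines, n = 2), on a log axis that is linear under 0.1 CPM. For *Gsdmc2* and *Gsdmc3* the CD organoid points lie above 160 CPM, the adult points between 3.69 and 10.2 CPM and the UB organoid points under 0.9 CPM, whereas for *Gsdmd* the CD organoid and adult points overlap.

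Per length, the order of the members in CD organoids was *Gsdmc2*, *Gsdmc3*, *Gsdmc4*, *Gsdmd* and *Gsdmc*. The deposited RPKM values (reads scaled to library size and to kilobases of gene length) were 55.1 ± 7.75, 32.7 ± 5.59, 1.59 ± 0.213, 0.763 ± 0.0545 and 0.0469 ± 0.0419 (mean ± SD, n = 2). The length used for the deposited RPKM adds up the exons of every annotated transcript, so a gene with many transcripts is given a low value. Per kilobase of exons with each base counted once, the levels were 144.3 ± 20.4 CPM for *Gsdmc2*, 78.8 ± 13.6 for *Gsdmc3*, 3.02 ± 0.407 for *Gsdmc4*, 1.60 ± 0.113 for *Gsdmd* and 0.0907 ± 0.0811 for *Gsdmc*, in the same order. On this scale *Gsdmc2* ranked 172 and *Gsdmc3* 419 among 39136 genes in CD organoids. In adult mCD they ranked 9085 and 11339, and *Gsdmd*, at 1.73 ± 0.109, could not be separated from *Gsdmc3*, at 1.72 ± 0.191.

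**Figure D2:**
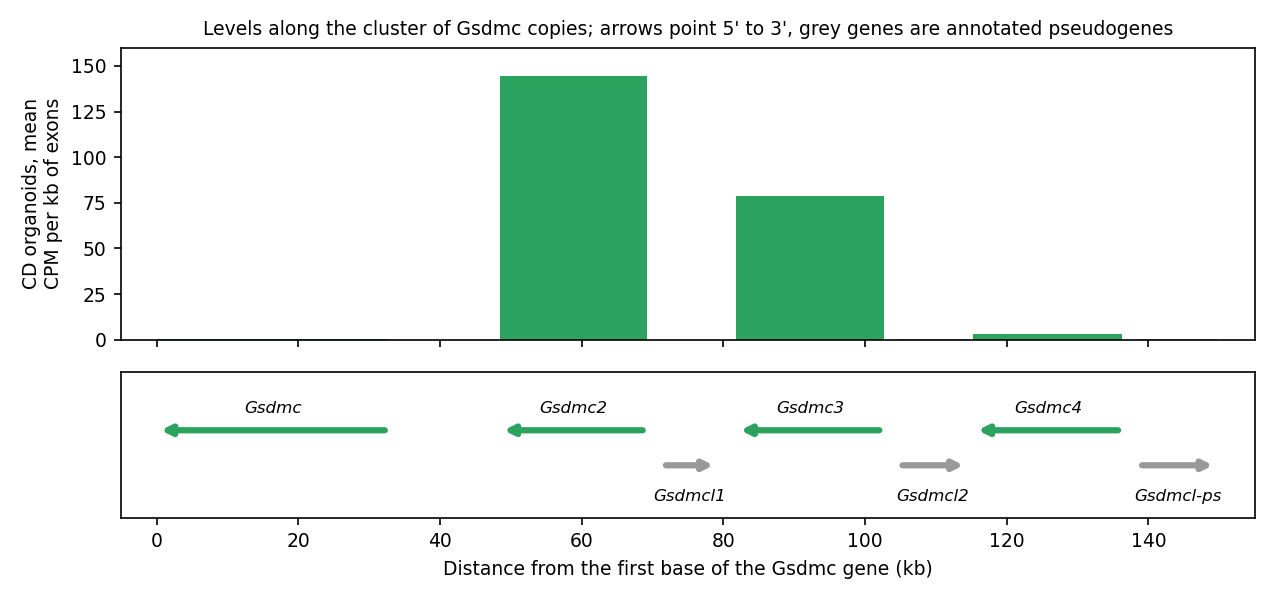
Mean level in CD organoids (CPM per kilobase of exons, n = 2) along the cluster, with distance from the first base of *Gsdmc* in kb and arrows for the direction of each gene. *Gsdmc2* (144.3) and *Gsdmc3* (78.8) are high, while *Gsdmc4* (3.02), *Gsdmc* (0.0907) and the pseudogenes *Gsdmcl2* (0.370) and *Gsdmcl-ps* (0.131) are low, and *Gsdmcl1* has no value.

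The division of reads among the copies was compared between libraries. *Gsdmc2* took 64.3% (exact 95% binomial interval 63.1 to 65.4) and 63.3% (62.2 to 64.4) of the reads of the 4 copies in the CD organoid libraries, and *Gsdmc3* took 34.5% and 35.5%. In adult mCD *Gsdmc2* took 73.0% (66.0 to 79.2) in replicate 1 and 61.2% (53.0 to 69.0) in replicate 2, so that the adult libraries lay on either side of the CD organoids. Of *Gsdmc2* and *Gsdmc3* reads alone, *Gsdmc2* held 65.1% and 64.1% in CD organoids and 73.4% and 62.8% in adult mCD. *Gsdmc4* took 1.22% and 1.19% in CD organoids and 1 of 185 and 4 of 152 reads in adult mCD. No difference between CD organoids and adult mCD in this division was larger than the spread between the adult libraries.

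**Figure D3:**
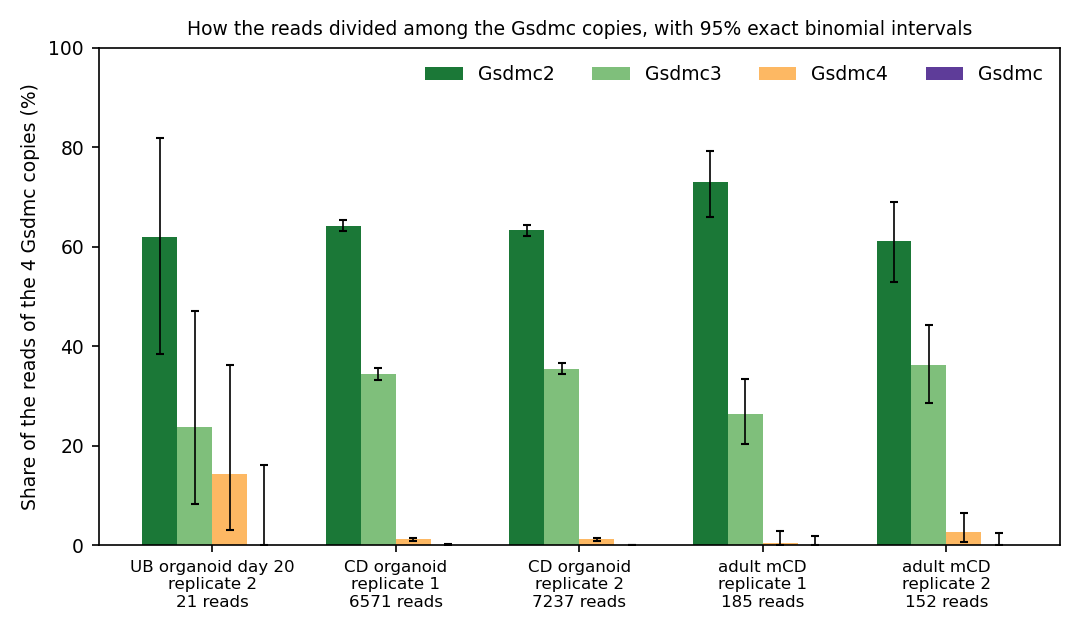
Share of the reads of the 4 *Gsdmc* copies taken by each copy, in percent, in the 5 libraries with at least 10 such reads, with exact 95% binomial intervals. *Gsdmc2* holds between 61.2% and 73.0% and *Gsdmc3* between 23.8% and 36.2% in every one of them, and the intervals are wide in the adult libraries and in day 20 replicate 2, which has 21 reads.

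Adult mCD was also set against the UB organoids. The members were chosen in part for being low in these same UB libraries, so the differences are given as a description, without p-values, and nothing is read from how many passed a threshold. The fit was edgeR's quasi-likelihood model over 24410 genes, with a call at an adjusted p of at most 0.01 (Benjamini-Hochberg) and a change of over 4-fold. Against UB day 10, *Gsdmc2*, *Gsdmc3* and *Gsdmd* were among the 13.4% of genes called higher. The log2 change was 4.80 ± 0.51 (SE) for *Gsdmd* and 5.98 ± 0.42 for the summed copies. *Gsdmc2* and *Gsdmc3* had no reads at day 10, and adult mCD was at least 76.6-fold and at least 35.1-fold higher. *Gsdmc4*, at 0.26 ± 0.62 on the log2 scale, was not called.

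Against UB day 20, the same 3 genes were called higher in adult mCD, beside calls of 12.3% of all genes in that direction and 6.89% in the other. The log2 change was 4.29 ± 0.54 for *Gsdmd*, 4.24 ± 0.48 for *Gsdmc2*, 4.26 ± 0.49 for *Gsdmc3* and 4.05 ± 0.38 for the sum, while *Gsdmc4*, at 0.22 ± 0.67, was again not called. These values rest on UB organoid day 20 replicate 2, which held nearly all of the reads. Without it, adult mCD was at least 48.0-fold higher for *Gsdmc2*, at least 22.02-fold for *Gsdmc3* and at least 22.6-fold for *Gsdmd*, against a floor of 3 counts, and 106.8-fold for the sum, on 2 reads (95% counting interval 29.4 to 885.9). Without replicate 1 in its place, the log2 changes were 3.28 for *Gsdmc2*, 3.41 for *Gsdmc3*, 3.45 for *Gsdmd* and 3.18 for the sum. With DESeq2 in place of edgeR, *Gsdmc2* was not called against day 20 (log2 change 4.43).

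All *Gsdmc2* and *Gsdmc3* reads of the UB organoids were in UB organoid day 20 replicate 2. Its 13 *Gsdmc2* counts and 5 *Gsdmc3* counts amounted to 0.257% and 0.180% of the mean CPM of CD organoids. Its 5 *Gsdmd* counts were likewise all that day 20 had. The CPM of all 8 intercalated cell markers and all 8 principal cell markers was also higher in this library than in replicate 1, by very unequal amounts. *Foxi1*, the transcription factor of intercalated cells, had 14 against 2 counts, *Slc4a9*, a bicarbonate transporter, 13 against 0, and *Dmrt2*, a transcription factor, 3 against 0, which was 0.189%, 0.175% and 0.149% of the CD organoid level. *Aqp2*, the vasopressin-regulated water channel of principal cells, had 104 against 12 counts, or 1.23% against 0.130% of the CD organoid level. Other markers hardly differed: *Atp6v1b1*, a proton pump subunit, had 42 against 40 counts, *Avpr2* had 2 against 0, and *Aqp4*, a further water channel, had 134 against 144 counts, which is 8.86 against 8.74 CPM. As a share of the CD organoid level, this library ranged from 0.149% for *Dmrt2* through 5.96% for *Aqp4* and 21.1% for *Slc4a1* to 37.4% for *Scnn1g*. *Slc4a1*, at 0.529 CPM in this library, was at 545.3 and 530.0 CPM in adult mCD. Of the 8 proximal tubule markers, 6 were above 3 counts in this library and 3 in replicate 1. *Slc34a1* had 24 against 13 counts and *Keg1* 8 against 1, while *Lrp2* had 429 against 541. That list summed to 31.5 CPM here and to 34.0 CPM in replicate 1. The part of cells with any of these markers in the gasdermin reads of this library was not tested.

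Among the UB organoids, *Gsdmd* and *Gsdmc4* had reads enough to compare days. *Gsdmc2* and *Gsdmc3* had none on days 5 and 10 and entered the fit through other groups, so a test between UB days is not informative for them and is not counted. These libraries also took part in choosing the members, so changes between days are given as a description, without p-values, and no call is read as support. *Gsdmd* fell by 2.57 ± 0.55 on the log2 scale from day 5 to day 10 and was among the 3.41% of all genes tested that were called in either direction. The call rests on 40 counts at day 5 and 5 at day 10. It was lost without day 5 replicate 2 (log2 change -2.29) or without day 10 replicate 2 (log2 change -2.34). Neither gene was called between day 10 and day 20, where 3.39% of all genes were called, or between day 5 and day 20, where 8.61% were. From day 5 to day 20 *Gsdmd* had a log2 change of -2.06 ± 0.60, with an adjusted p just past the threshold. It was called without day 10 replicate 1 (-2.04) or without day 10 replicate 2 (-2.03). It was also called without day 20 replicate 2, when day 20 has no *Gsdmd* read and no fold is given.

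The genes around the members were examined as positions. Within 500 kb of the *Gsdmc* copies lie 20 other annotated genes, of which 2 are protein-coding, *Fam49b* and *Asap1*. Of the 6 neighbours with enough reads for a test, 2 were called higher in CD organoids than at UB day 10. In this comparison 4.96% of all genes were called higher. Both neighbours are pseudogenes of the cluster itself, and they entered the fit only through their reads in CD organoids. Their calls are therefore given as a description and are not weighed against that share. *Gsdmcl2* had 15 and 16 counts in CD organoids and at most 3 in any other library, and was also called higher there against day 20 and against adult mCD. *Gsdmcl-ps* had 4 counts in each CD organoid library, 2 and 1 at day 20 and 0 elsewhere, and it was not called against day 20 (adjusted p = 0.236) or against adult mCD (adjusted p = 0.0254). *Fam49b*, 16.8 kb from *Gsdmc4*, ranged from 24.7 to 167.8 CPM and was at 163.7 CPM in CD organoids, with a log2 change of 1.21 from day 10 that was under the 4-fold limit. *Asap1* ranged from 33.2 to 113.2 CPM and had a log2 change of -0.69. Around *Gsdmd*, 3 of 46 tested neighbours were called higher and 1 lower, beside 4.96% and 5.71% of all genes, and the nearest protein-coding neighbours, *Mroh6* and *Zc3h3*, were not called.

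A promoter sequence was at hand in the RefSeq table (GRCm38.p6) for *Gsdmc3* alone of the 5 members, and its 250 bases upstream of the start are shown because this gene went from no reads to over 160 CPM. They lie at chr15:63878559-63878808 and are printed on the minus strand, as the gene reads, in lower case throughout.
Gsdmc3: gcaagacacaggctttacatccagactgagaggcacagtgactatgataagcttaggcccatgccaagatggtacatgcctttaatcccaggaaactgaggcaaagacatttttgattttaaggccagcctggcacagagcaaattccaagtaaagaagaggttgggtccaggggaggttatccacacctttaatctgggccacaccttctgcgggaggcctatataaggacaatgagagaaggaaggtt
6 strings of letters were searched on both strands, and the share of the 32851 promoters of this length that hold each is given. TATAAA, a form of the TATA box, is held by 12.4% of them and AGATAA, a form of the GATA motif, by 10.0%. A forkhead motif (TGTTTAC) is held by 3.2% and the hormone receptor hexamer (AGAACA) by 16.1%. An AP-1 motif (TGANTCA) is held by 6.7% and a STAT motif (TTCNNNGAA) by 7.0%. None of these exact strings is in the printed sequence. Variants were not searched, and the sequence does hold tatataa and tgataa, which differ slightly from the strings for the TATA box and the GATA motif, so nothing is drawn about the presence of either element.

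The genes that act with gasdermins were described from 7 lists: other gasdermins, proteases that cut gasdermins, inflammasome sensors and their adaptor, the released cytokines with membrane rupture proteins, membrane repair and gasdermin regulators, necroptosis and apoptosis genes, and the type 2 cytokine response. Of their 82 genes, 77 are in the table and 65 had enough reads for a test. From UB day 10 to CD organoids, 12 of these 65 (18.5%) were called higher and 1 lower, beside 4.96% of all genes in that direction and 5.71% in the other. Against UB day 20, 10 were called higher and 2 lower, beside 4.74% and 4.73% of all genes. CD organoids against adult mCD had 7 higher and 12 lower, beside 4.50% and 9.84% of all genes. Adult mCD against UB day 20 had 16 higher (24.6%) and 2 lower (3.08%), beside 12.3% and 6.89% of all genes. The first 3 of these comparisons share the CD organoid libraries. The lists were chosen with earlier results of these data known, so the shares are a description and nothing is drawn from an excess over all genes. The genes called are also not independent. Those higher against day 10 include the cluster's pseudogenes *Gsdmcl2* and *Gsdmcl-ps* and the *Naip* genes, which are close copies.

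**Figure D4:**
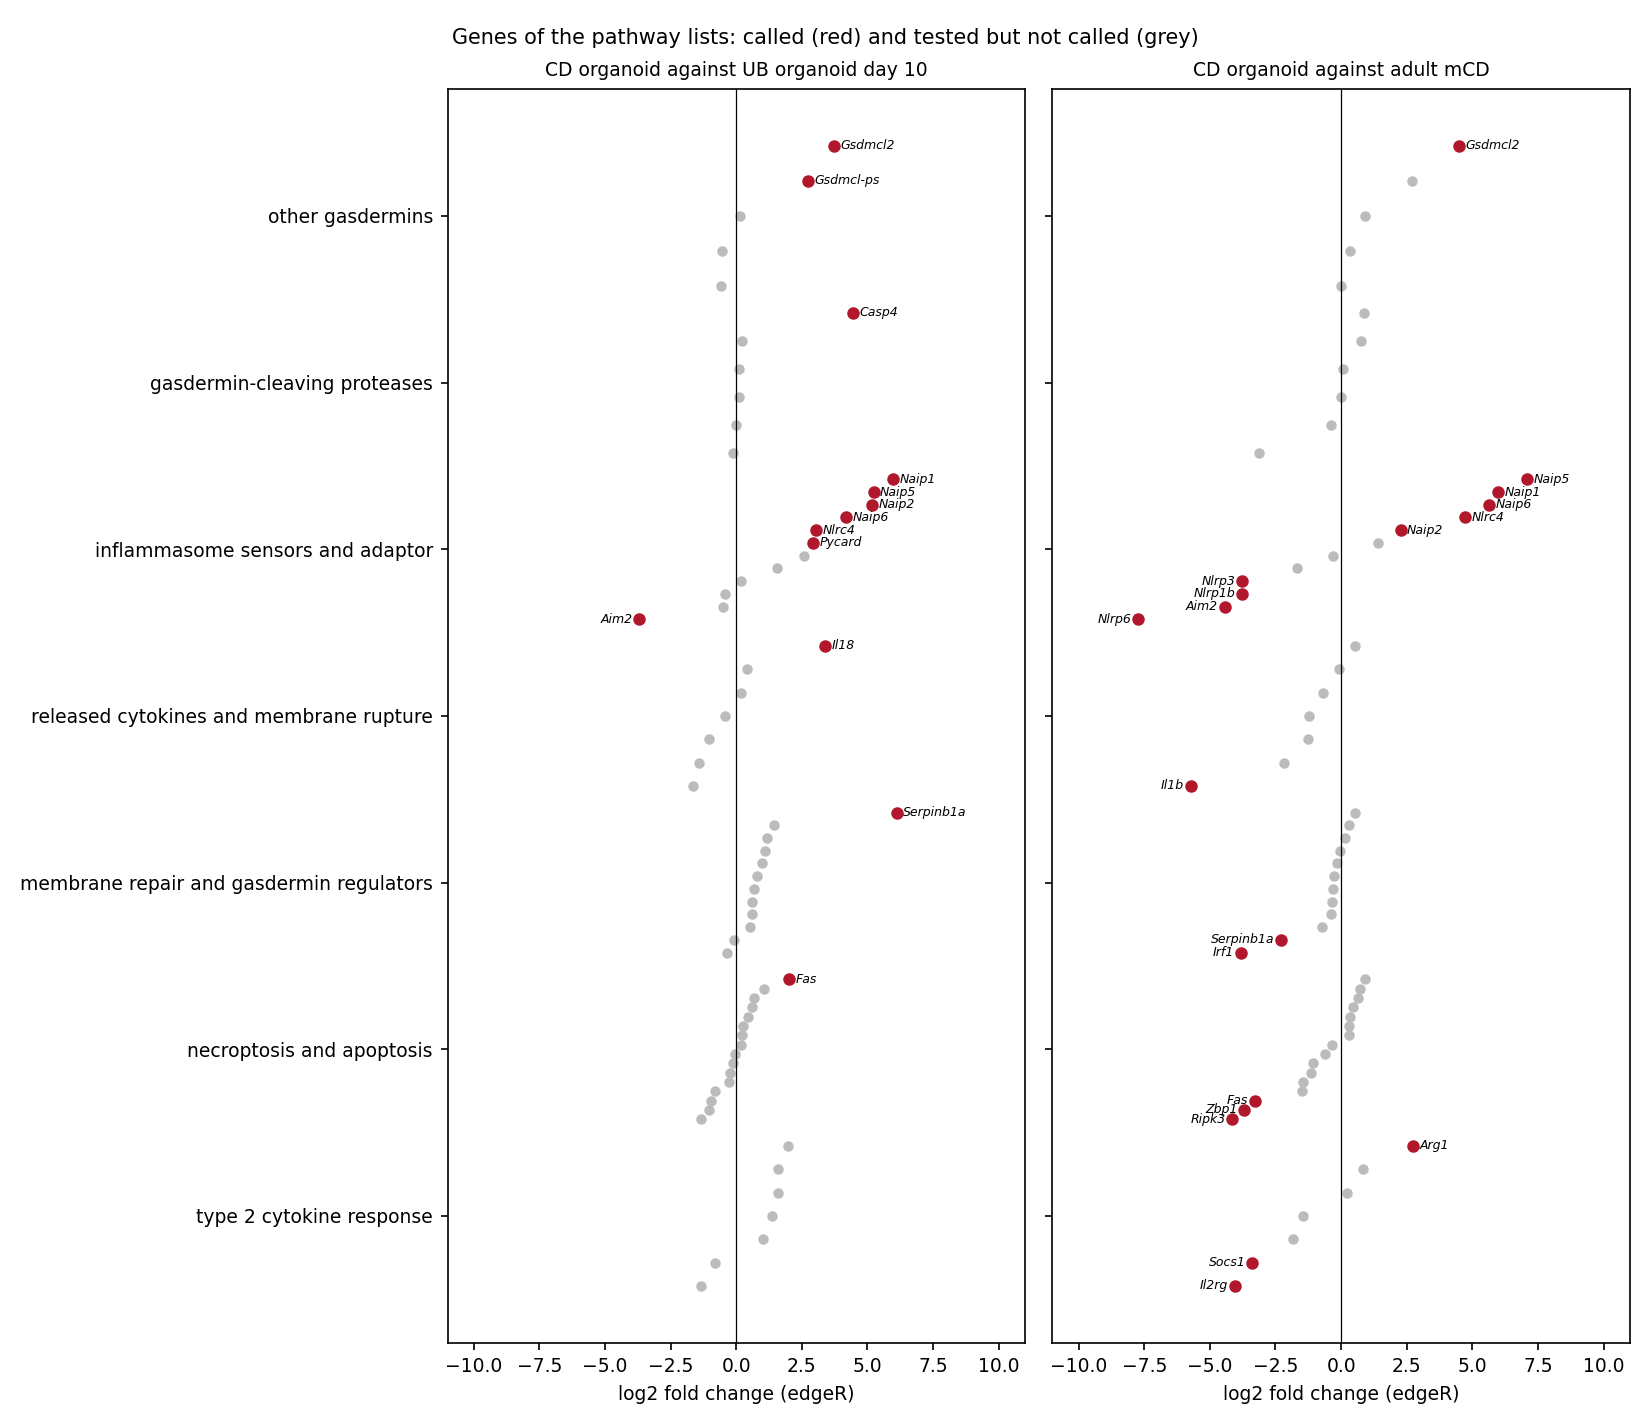
Log2 fold changes (edgeR) of the tested genes of the 7 lists in CD organoids against UB organoid day 10 (left) and against adult mCD (right), with called genes in red and named. The 4 *Naip* genes and *Nlrc4* lie to the right in both panels, whereas *Serpinb1a* and *Fas* lie to the right against day 10 and to the left against adult mCD.

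The inflammasome list held 6 of the 12 genes called higher in CD organoids against UB day 10. Inflammasomes are protein assemblies that detect microbial products or damage and activate caspase 1. The *Naip* genes encode sensors of bacterial flagellin and secretion system proteins, and *Nlrc4* encodes the adaptor that they engage. Of the 12 genes tested in this list, 6 were higher in CD organoids than at UB day 10 (*Naip1*, *Naip2*, *Naip5*, *Naip6*, *Nlrc4* and *Pycard*) and 1, *Aim2*, was lower, with a list median of 2.76 on the log2 scale against -0.15 over all genes. *Naip1* and *Nlrc4* were named after their values were seen.

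*Naip5* was at 66.1 and 75.2 CPM in CD organoids and at 0.226 and 0.707 CPM in adult mCD. In UB organoids it had 0 and 1 counts on day 5, then 0.674 and 2.92 CPM on day 10, then 14.2 and 11.9 CPM on day 20. It rose in CD organoids by 5.23 ± 0.36 against day 10, by 2.43 ± 0.30 against day 20 and by 7.10 ± 0.48 against adult mCD, on the log2 scale (adjusted p between 2.72e-08 and 1.46e-05). The gene thus went up with days in UB culture, was highest in CD organoids and was low in the adult cells.

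*Naip6* had 52.4 and 69.2 CPM in CD organoids, 23.1 and 22.5 at day 20, and 0.980 and 1.34 in adult mCD. Its change against day 20, at 1.41 ± 0.26 on the log2 scale, was under the 4-fold limit. *Naip2* was the member of this family with most reads in adult mCD, at 2.79 and 3.30 CPM, against 14.3 and 15.4 CPM in CD organoids. *Naip1* was at 7.26 and 9.06 CPM in CD organoids and under 0.2 CPM in all other libraries. The *Naip* genes are themselves close copies, so that their single values carry the same uncertainty as the *Gsdmc* copies. Summed over the 4 genes, CD organoids had 140.0 and 168.9 CPM and adult mCD had 4.07 and 5.42. The sum in UB organoids was 0.214 and 0.408 CPM on day 5, then 2.54 and 8.39 on day 10, then 38.7 and 35.8 on day 20. Unlike the *Gsdmc* copies, the *Naip* genes were read in both libraries of day 20 at like levels.

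*Nlrc4* was at 3.63 and 3.13 CPM in CD organoids and at most 0.728 CPM in any other library, a rise of 3.06 ± 0.55 on the log2 scale against day 10 (adjusted p = 0.000365). *Pycard*, which encodes the adaptor ASC that links sensors to caspase 1, was at 9.26 and 7.78 CPM in CD organoids, 0.872 and 1.24 at day 10, and 25.5 and 29.0 in adult mCD. *Pycard* thus rose against day 10 by 2.95 ± 0.23 and differed from adult mCD by -1.67 ± 0.19, which is under the 4-fold limit. *Nlrp6*, a sensor known from intestinal and kidney epithelium, was at 32.9 and 38.0 CPM in adult mCD and at most 0.789 CPM in the organoids, with a log2 change of -7.73 ± 0.32 from adult mCD to CD organoids (adjusted p = 6.73e-10). *Nlrp3* and *Nlrp1b* were likewise called lower in CD organoids, with at most 1 count in each CD organoid library.

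**Figure D5:**
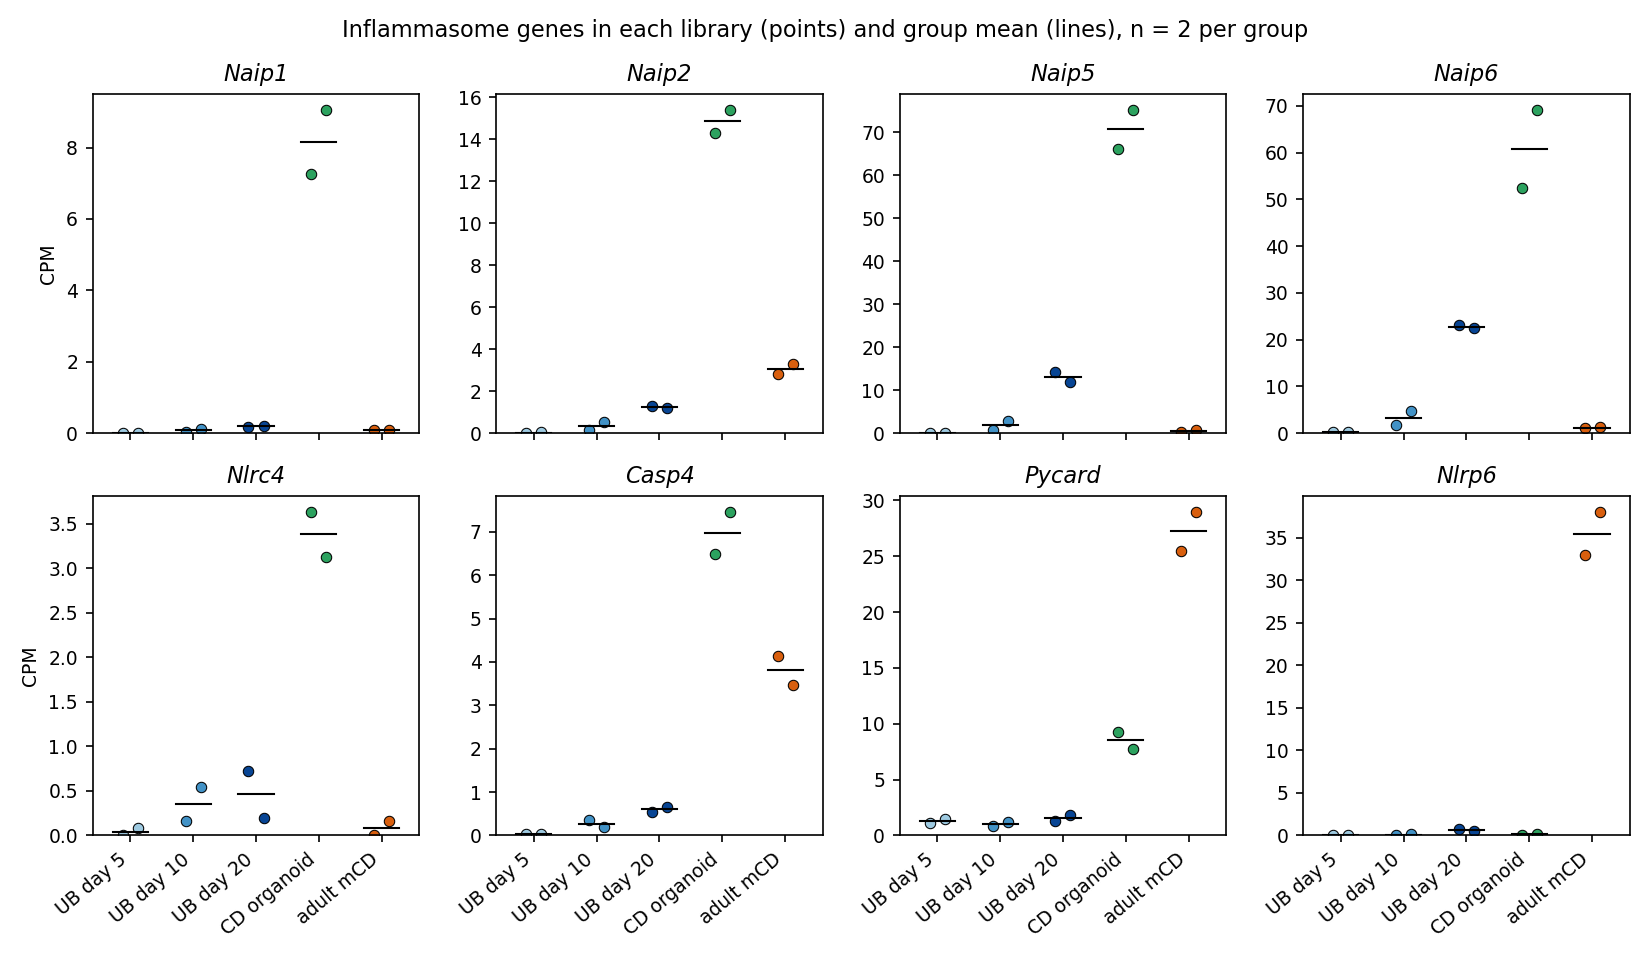
CPM of 8 inflammasome genes in each of the 10 libraries (points) with the mean of each group (lines, n = 2), on linear axes from 0. *Naip1*, *Naip2*, *Naip5*, *Naip6*, *Nlrc4* and *Casp4* are highest in CD organoids, while *Pycard* (25.5 and 29.0 CPM) and *Nlrp6* (32.9 and 38.0 CPM) are highest in adult mCD.

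Of the 6 tested proteases, 1 was called in CD organoids against UB day 10. *Casp4*, which encodes the mouse caspase 11 that senses lipopolysaccharide in the cytosol and cuts the *Gsdmd* product, had 91 and 93 counts in CD organoids against 9 and 5 on day 10, 9 and 10 on day 20, and 55 and 44 in adult mCD. It rose by 4.45 ± 0.33 on the log2 scale against day 10 (adjusted p = 6.68e-08) and by 3.42 ± 0.32 against day 20 (adjusted p = 9.08e-07), and it was higher in adult mCD than at day 20 by 2.56 ± 0.33. *Casp1*, the caspase of the canonical inflammasomes, had 0 counts in all 8 organoid libraries and 7 and 4 counts in adult mCD, which left it without a call. *Casp8*, which encodes the caspase 8 named above, was at 44.6 and 45.3 CPM in CD organoids and 45.6 and 44.5 CPM in adult mCD, and between 29.2 and 50.9 CPM in UB organoids.

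The other gasdermin genes gave 2 calls among 5 tested against UB day 10, the 2 pseudogenes named above, which entered the fit only through CD organoids. *Gsdme*, the target of caspase 3, was at between 7.88 and 15.7 CPM in every library, with a log2 change of 0.16 ± 0.14 from day 10 to CD organoids (adjusted p = 0.38). It was not called in any of the 4 comparisons of the lists.

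Of the 7 cytokine and rupture genes, *Il18* alone was called higher in CD organoids against UB day 10. *Il18*, an epithelial cytokine that is matured by caspase 1, was at 1.71 and 1.28 CPM in CD organoids, 0.0793 and 0.109 at day 10, and 4.30 and 3.14 in adult mCD. It rose by 3.39 ± 0.48 on the log2 scale against day 10 (adjusted p = 6.45e-05) and was higher in adult mCD than at day 20 by 4.38 ± 0.48. *Il1b* had 36 and 37 counts in adult mCD, 0 in CD organoids and at most 2 in any UB organoid library. *Ninj1*, which encodes a protein of plasma membrane rupture, was at 27.3 and 30.0 CPM in CD organoids, 25.6 and 25.2 at day 10, and 63.2 and 71.5 in adult mCD. None of its changes passed 4-fold.

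Among the 12 regulators and repair genes, 1 was called against UB day 10. *Serpinb1a*, which encodes an inhibitor of neutrophil-type proteases and inflammatory caspases, had 1 and 3 counts at day 10, 132 and 105 in CD organoids, and 558 and 572 in adult mCD. It rose by 6.11 ± 0.31 in CD organoids and had a log2 change of -2.28 ± 0.18 from adult mCD to CD organoids (adjusted p = 1.18e-07). *Irf1*, a transcription factor of interferon responses, was at 38.3 and 38.6 CPM in CD organoids and 574.7 and 520.2 CPM in adult mCD, a log2 change of -3.83 ± 0.12 towards CD organoids. The ESCRT genes of this list, which act in membrane repair, were not called in any of the 4 comparisons.

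In the list of necroptosis and apoptosis, 1 of 16 genes was called in CD organoids against UB day 10 and 3 against adult mCD. *Fas*, a death receptor, was at 2.14 and 1.93 CPM in CD organoids, against 0.634 and 0.292 on day 10, 4.67 and 4.49 on day 20, and 19.5 and 21.4 in adult mCD. Its log2 change was 2.03 ± 0.34 from day 10 and -1.15 ± 0.27 from day 20, the latter under the 4-fold limit. *Ripk3*, a kinase of necroptosis, had a log2 change of -4.14 ± 0.32 from adult mCD to CD organoids, and *Zbp1* had 10 and 7 counts in adult mCD and 0 in CD organoids. In the type 2 cytokine list, none of 7 genes was called against UB day 10 by edgeR at this threshold. Its median log2 change was nonetheless 1.37, against -0.15 over all genes. *Il4ra* (1.98 ± 0.09), *Stat6* (1.37 ± 0.17) and *Il13ra1* (1.03 ± 0.11) rose by less than the 4-fold limit. *Socs1* (-1.34 ± 0.25) and *Il2rg* (-0.79 ± 0.86) had the other sign. *Stat6*, the transcription factor below the interleukin 4 and 13 receptors, was at 27.6 and 35.0 CPM in CD organoids, against 14.8 and 9.33 on day 10, 1.94 and 2.51 on day 20, and 111.3 and 110.5 in adult mCD, and was called higher in CD organoids against day 20 (3.78 ± 0.23). Against adult mCD, *Arg1* was called higher in CD organoids on 5 and 10 counts against 1 and 0, and *Il2rg* and *Socs1* were called lower.

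Markers of other cells were summed in the CD organoids beside these results. Of the 10 leukocyte markers, 2 were above 3 counts in CD organoids, *Ptprc* (614 and 466 counts) and *Cd68* (115 and 108), and they made up nearly all of the list's 52.2 and 46.1 CPM. *Itgam*, *Adgre1*, *C1qa*, *C1qb* and *Tyrobp* had 0 counts in both CD organoid libraries, and *Lyz2*, *Csf1r* and *Cd3e* had at most 3. The list summed to between 2.43 and 13.95 CPM in UB organoids. In adult mCD 8 and 7 of these markers were above 3 counts, with a sum of 58.1 CPM in each library. The 8 intestinal markers summed to 9.54 and 9.86 CPM in CD organoids, where *Cdx1*, *Fabp2* and *Alpi* were at 0, against 12.4 to 24.9 CPM in UB organoids and 89.2 and 108.5 CPM in adult mCD. The 10 squamous and urothelial markers summed to 7.55 and 10.4 CPM in CD organoids, where the keratins *Krt6a*, *Krt13* and *Krt14* were at 0, and to 77.8 and 66.5 CPM in adult mCD. The 8 endothelial and stromal markers summed to 140.2 and 67.2 CPM in CD organoids, 9.77 to 29.5 CPM in UB organoids, and 599.5 and 604.9 CPM in adult mCD. In CD organoids the sum came mostly from the stromal genes *Col1a1* (76.3 and 30.6 CPM), *Col1a2* (41.4 and 23.4 CPM) and *Pdgfra* (17.4 and 9.62 CPM), while the endothelial genes *Pecam1*, *Cdh5*, *Kdr* and *Emcn* were at most 0.802 CPM. The part of these cells in the values above was not tested.

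The collecting duct markers were set beside the *Gsdmc* copies, as sums and singly. The 8 intercalated cell markers summed to between 0 and 6.35 CPM in UB organoids, 2032 and 1942 CPM in CD organoids, and 2641 and 2734 CPM in adult mCD. The 8 principal cell markers summed to between 111.1 and 226.2 CPM in UB organoids, 1496 and 1334 CPM in CD organoids, and 11990 and 11520 CPM in adult mCD. *Avpr2*, the vasopressin receptor of principal cells, had 0 counts in both CD organoid libraries, but it was near the limit of detection everywhere. It had 2 and 4 counts in adult mCD and at most 2 in any UB organoid library. *Scnn1g*, a sodium channel subunit, was at 119.6 and 128.4 CPM in CD organoids, within the 87.7 and 145.8 CPM of day 5. Both sums were higher in adult mCD than in CD organoids, unlike the summed *Gsdmc* copies, but single markers went either way. *Foxi1* was higher in CD organoids (507.5 and 472.2 CPM) than in adult mCD (169.4 and 168.6 CPM), and so was *Dmrt2* (135.9 and 129.8 against 25.6 and 25.5 CPM). *Slc4a9* and *Atp6v0d2* were near level between these groups, and *Slc4a1*, a bicarbonate exchanger, was at 2.78 and 2.25 CPM in CD organoids and 545.3 and 530.0 CPM in adult mCD. The part of these cells in the *Gsdmc* levels was not tested.

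The 8 genes whose levels were most like the summed *Gsdmc* copies over the 10 libraries, by Pearson's r of log2(CPM + 1) among 12075 genes with a maximum of at least 10 CPM, were *Fer*, *Asic5*, *Bcl2l14*, *Actr2*, *Gm13398*, *Oit1*, *Lamb3* and *Sh3bgrl3*, with r from 0.990 to 0.995. The 10 libraries are 5 pairs and each r is a description that rests on the order of the groups. *Asic5*, an ion channel gene, had 10.1 to 12.7 CPM in CD organoids, 1.36 to 1.65 CPM in adult mCD and at most 0.0661 CPM in UB organoids. *Bcl2l14*, of the BCL2 family, had 54.7 to 59.5 CPM in CD organoids, 14.8 to 17.2 in adult mCD and 5.06 to 6.21 in UB organoids. *Fer* and *Actr2* shared the order of the groups but differed between them far less, with *Fer* at 53.7 to 54.9 CPM in CD organoids and 30.6 to 34.0 CPM in UB organoids. With a pseudocount of 0.1, 2 of these 8 genes, *Asic5* and *Gm13398*, were still among the 8 most alike.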

How the data were processed

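The authors deposited 1 table of 39273 genes with 3 kinds of value for each of the 10 libraries. To make the counts used here, which are whole numbers, the authors trimmed reads, aligned them with STAR to mm10 (GENCODE M24) and ran the E/M quantification of Partek Flow, which divides ambiguous reads between genes, so the split among the *Gsdmc* copies and among the *Naip* genes is uncertain. The submitters' processing notes name FastQC 0.11.8, cutadapt 2.5, Trimmomatic 0.36 and edgeR 3.28.1. The deposited RPKM served for levels per length only, and the deposited TMM-scaled signal served only to check the columns. The RNA kit and the library kit of the labels are not those of the study's methods.

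Genes with at least 10 counts over all libraries (24410) entered 1 fit of group means over the 10 libraries (edgeR 4.0.16, R 4.3.3, quasi-likelihood). TMM factors ranged from 0.792 to 1.12, the prior count was 1, and p-values were adjusted over all genes by Benjamini-Hochberg. A call needs an adjusted p of at most 0.01 and over 4-fold, as in the study. The common dispersion was 0.00831, estimated over all groups since each has 2 libraries. On simulated data for adult mCD against UB organoid day 20, 199 of 200 changed genes among 23621 were recovered, with 0 false calls. Recovery was not tested separately for changes near 4-fold or for genes with few counts, such as the members in UB organoids. For the sum, the 4 copies were replaced by 1 gene in the whole table. Folds against a group with no reads use 3 counts per library, and intervals of ratios are exact 95% conditional binomial intervals on pooled counts, for counting error only. Replicate numbers did not pair the libraries: the correlation of deviations between same-numbered libraries was between -0.075 and 0.096 over the 10 pairs of groups.

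Positions and exon lengths came from GENCODE M21 on GRCm38, which holds 97.8% of the deposited versioned identifiers, and the promoter from RefSeq. Tables and figures were made with Python 3.11.15, pandas 2.3.3, scipy 1.17.1 and matplotlib 3.10.9. The members and the gene lists were chosen with earlier results of these data known. Named are the members, the genes called in each list (at most the 4 of highest mean CPM in a comparison), *Gsdme*, *Casp1*, *Casp4*, *Casp8*, *Pycard*, *Il18*, *Il1b* and *Ninj1* whatever their result, the neighbours within 500 kb as positions, and the 8 genes most like the summed copies. *Gsdmcl-ps*, *Nlrp3*, *Nlrp1b*, *Aim2*, *Il4ra*, *Il13ra1* and single marker genes were also named after their values were seen. Alternatives varied the scaling, low-count filter, prior count, test (DESeq2 1.42.0), threshold, groups fitted together, replicate block and scale per length, and omitted each library in turn, and the scale per kilobase of exons was added after the data were seen.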

Additional observations from a re-analysis of the deposited data

How the results depend on the processing

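*Gsdmd* and the summed copies were called in adult mCD against UB day 10 and day 20 under every alternative run. The members were chosen in part for being low in these UB libraries, so these calls are no support and are given as a description. Leaving out 1 library gave log2 changes of 4.59 to 5.03 (*Gsdmd*) and 5.84 to 6.11 (sum) against day 10, and of 3.18 to 6.22 for the sum against day 20, highest without UB organoid day 20 replicate 2. Without that library day 20 has no *Gsdmd*, *Gsdmc2* or *Gsdmc3* read, and their fitted changes then depend on the prior count. The fall of *Gsdmd* from day 5 to day 10, likewise a description, was not called with a prior count of 5 (-1.59, by the 4-fold limit). Nor was it called in a fit of the 2 groups alone (-2.68) or without day 5 replicate 2 or day 10 replicate 2. Leaving out 1 library gave -2.79 to -2.29. Changes that were not called turned in sign: *Gsdmc4* in adult mCD with library totals alone (-0.11 against day 10, -0.13 against day 20) and on leaving out a library (-0.67 to 0.81, and -0.74 to 0.74), and from day 10 to day 20 *Gsdmc4* (-0.23 to 0.31), *Gsdmd* (-1.48 to 1.39) and the sum (-0.23 to 2.83), lowest in all 3 without day 20 replicate 2. With the threshold eased to 0.05 and no fold limit, the lists had 33 genes higher and 8 lower in CD organoids against day 10, 32 and 12 against day 20, 18 and 30 against adult mCD, and 34 and 11 in adult mCD against day 20. The genes called lower against day 10 were 0 with at least 1 CPM in 2 libraries or a prior count of 5, and 1 to 2 on leaving out a library. Against day 20 they were 1 with that filter or DESeq2, 0 with the prior count of 5, and 1 to 3 on leaving out a library. With a replicate block, the sum from day 5 to day 20 crossed the threshold (log2 change 3.03) and no other call of a member changed. Nothing is drawn from this, since replicate numbers did not pair the libraries. Of the 23 reads of the sum at day 20, 21 were in replicate 2. Without the block, leaving out 1 library gave 0.88 to 3.93. Library totals alone moved the median of all genes by -0.43 in adult mCD against day 10, -0.41 against day 20 and 0.34 in CD organoids against adult mCD, and the share of calls that were higher from 59.6% to 44.5%, 64.1% to 50.5% and 31.4% to 44.4%. The cause of these changes was not tested. With 2 libraries per group and at most 24 counts of any member in a UB organoid library, depth limits every member value there.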
